A study of Mus musculus with 69 samples.

Results

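The genes described here are 10 factors and target genes of the YAP/TEAD system, taken by their symbols from a table of 55367 genes. They are the co-activator genes *Yap1* and *Wwtr1* (which encodes TAZ), the genes of their DNA-binding partners *Tead1* and *Tead2*, the kinase gene *Lats2*, the angiomotin family genes *Amotl1* and *Amotl2*, and the target genes *Ccn1*, *Ccn2* and *Ankrd1*. All 10 had counts. RNA was sequenced after poly(A) selection in 69 libraries, 3 replicates in each of 23 groups, from mouse E14tg2A embryonic stem (ES) cells and from mosaic gastruloids, which are aggregates of ES cells that elongate and form cell types of the early embryo.

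Of the 3 clones, WT–mCherry carried an EF1α-driven H2B–mCherry and WT–emiRFP a CAG-driven H2B–emiRFP670. The p53KO–emiRFP clone was a single subclone of WT–emiRFP with a homozygous frameshift in *Trp53*, selected with Nutlin-3a, so that the mutation and the subclone cannot be told apart. At 0 h each clone was taken as ES cells in serum with LIF. At 48, 72, 96, 120 and 144 h cells were sorted by colour from gastruloids, which were grown in N2B27 medium instead. The protocol gives a pulse of CHIR, an activator of Wnt signalling, from 48 to 72 h, so that the 48 h populations were taken when it starts and those from 72 h on had been through it. WT + WT gastruloids were seeded with 150 WT–mCherry and 150 WT–emiRFP cells and WT + p53KO gastruloids with 150 WT–mCherry and 25 p53KO–emiRFP cells, so that the genotype of the emiRFP cells and their number at seeding cannot be told apart.

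Library totals ranged from 26722541 to 72981570 counts (median 53098728). *Trp53* stood at 13902 to 27510.5 normalized counts in the WT libraries and at 1506 to 2589 in the p53KO–emiRFP libraries. None of 7 pluripotency markers was at 0 in the ES cells. A normalized count is a count divided by the median-of-ratios size factor of its library. Differences were called with edgeR's quasi-likelihood test at a Benjamini-Hochberg adjusted p under 0.05 over all genes tested, and each log2 fold change is given with its standard error (SE). The study's methods give 3 independent experiments, and the p-values measure the spread between these libraries. The main fits did not pair same-numbered libraries, so that a shift shared by them counts as spread there.

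YAP and TAZ do not bind DNA themselves and act on genes mainly through the TEAD factors. The Hippo kinases, with LATS1 and LATS2 as the last step, phosphorylate YAP and TAZ and so keep them out of the nucleus, and the angiomotins bind YAP at junctions and in the cytoplasm. *Ccn1*, *Ccn2* and *Ankrd1* are common readouts of YAP activity, and *Lats2* and *Amotl2* are targets whose products restrain YAP. The comparisons ask how the RNA of this pathway stood in each population of the mosaic gastruloids. RNA levels do not show where the YAP protein is in a cell.

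The promoter stretches printed here belong to 3 target genes whose RNA fell between ES cells and 48 h and whose windows held GGAATG, the core of the TEAD binding motif. Each is the 250 bases before the RefSeq start (GRCm38.p6), on the strand of the gene, with matches to GGAATG, or to CATTCC where the match is on the other strand, in capitals.
Ccn1 (chr3:145649986-145650235, minus strand): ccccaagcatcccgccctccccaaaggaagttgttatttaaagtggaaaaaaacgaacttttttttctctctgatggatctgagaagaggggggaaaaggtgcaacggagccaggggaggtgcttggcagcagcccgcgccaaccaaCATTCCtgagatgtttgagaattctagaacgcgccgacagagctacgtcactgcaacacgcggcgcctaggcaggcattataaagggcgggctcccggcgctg
Ankrd1 (chr19:36119845-36120094, minus strand): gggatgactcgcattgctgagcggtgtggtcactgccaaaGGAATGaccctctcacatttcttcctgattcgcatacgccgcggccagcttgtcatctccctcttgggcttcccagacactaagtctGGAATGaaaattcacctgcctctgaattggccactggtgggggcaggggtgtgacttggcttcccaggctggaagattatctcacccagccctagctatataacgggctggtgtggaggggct
Amotl2 (chr9:102717554-102717803, plus strand): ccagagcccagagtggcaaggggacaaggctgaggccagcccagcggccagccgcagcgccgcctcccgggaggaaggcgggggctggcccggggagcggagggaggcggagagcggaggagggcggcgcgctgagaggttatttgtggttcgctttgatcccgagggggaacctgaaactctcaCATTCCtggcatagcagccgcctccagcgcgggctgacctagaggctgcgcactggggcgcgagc
The match in *Ccn1* lay 103 bases before the start, those in *Ankrd1* 210 and 123 bases and that in *Amotl2* 65 bases. The *Ankrd1* and *Amotl2* windows lie inside the longer Gencode spans of these genes. *Yap1* and *Wwtr1* also had a window with a match, and none was found in those of *Tead2*, *Amotl1* and *Lats2*. Searched on both strands, 5 of the 8 genes with a window (62.5%) held the motif, beside 14.36% of 27025 genes and 12.64% of 32851 windows. A match is a run of letters, not a shown binding site.

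Per kilobase of exon, *Tead2* (chr7:45215753-45233644, plus strand, in the GRCm38 Gencode annotation, as are all gene positions here) had the highest RNA level of the 10 genes in all 23 groups. In WT–emiRFP ES cells it stood at 1795.5 ± 242 normalized counts per kb (SD, n = 3). *Yap1* (chr9:7931999-8004596, minus strand) was second in 22 groups and stood at 1005 ± 22.1 per kb in the same cells, above *Wwtr1* (chr3:57455649-57575910, minus strand) at 376 ± 61.2 per kb. *Amotl2* at 791 ± 24.3, *Tead1* at 673 ± 208 and *Ccn2* at 576 ± 88.7 per kb overlapped their neighbours in the order. *Ccn1* at 381 ± 80.6 per kb overlapped *Wwtr1*, and *Amotl1* stood at 139 ± 26.1 per kb. *Ankrd1* was lowest in every group and *Lats2* next to lowest, at 5.22 ± 1.61 and 10.4 ± 2.04 per kb in WT–emiRFP ES cells. In p53KO–emiRFP ES cells these 2 genes overlapped, at 11.5 ± 3.43 and 11.7 ± 4.97 per kb.

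By 144 h the order differed between the emiRFP clones. In WT–emiRFP cells *Ccn2* reached 1016 ± 165 per kb and overlapped *Yap1* at 1161 ± 71.2 and *Amotl2* at 1012 ± 67.5. In p53KO–emiRFP cells *Ccn2* stood at 285 ± 55.7 per kb, above only *Lats2* and *Ankrd1*, and *Tead2* at 4553 ± 333.

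**Figure D1:**
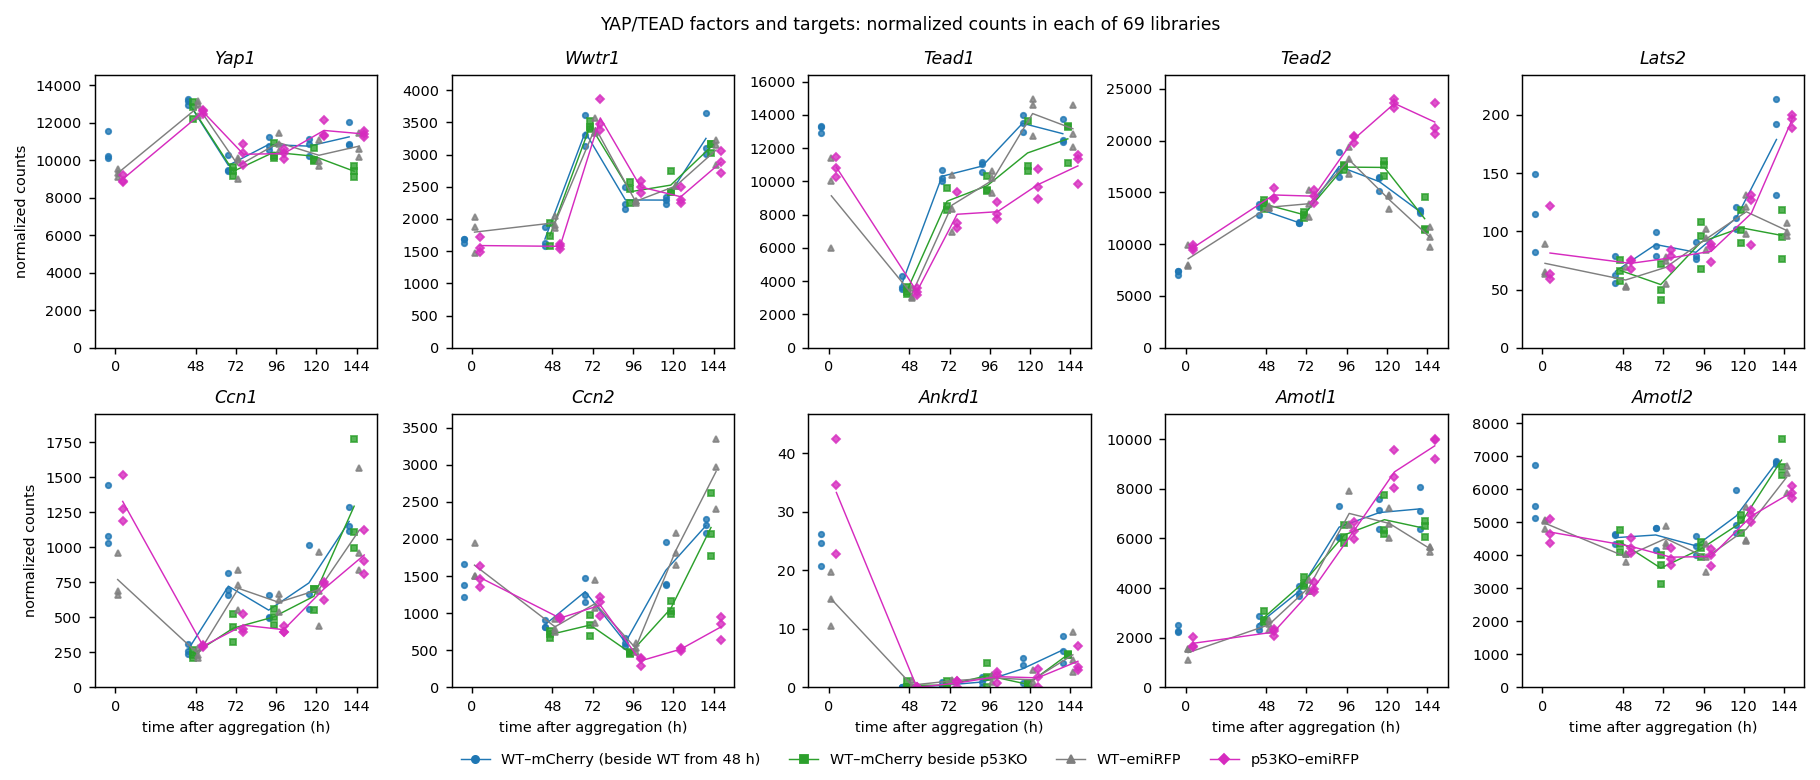
Normalized counts (vertical axes, each from 0) of the 10 genes against hours after aggregation; each point is a library, lines join the means of 3 libraries, and colours mark the populations. *Yap1* stays within 8844 to 13234 over all libraries, and at 144 h the p53KO–emiRFP libraries stand above the others for *Tead2* and *Amotl1* and below them for *Ccn2*.

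The time course in WT cells takes both clones together, and at each time after 0 h 3 of the 9 WT libraries are WT–mCherry cells sorted from beside p53KO cells. It started with a change of TEAD genes. *Tead1* (chr7:112679318-112906807, plus strand) went from 5975 to 13328 (median 12157) normalized counts in 6 libraries of ES cells to 3021 to 4309 (median 3516) in 9 libraries at 48 h and fell (log2 fold change −1.65, SE 0.08, adjusted p = 5.46e-26). Over the same step *Tead2* rose from 7066 to 9934 (median 7619) to 12794.5 to 14303 (median 13640.3) (0.78, SE 0.047, adjusted p = 6.07e-22). The ranges of neither gene overlapped between these times. *Tead1* rose again by 72 h, during the CHIR pulse (1.40, SE 0.074, adjusted p = 4.24e-24), and by 120 h (0.35, SE 0.072, adjusted p = 3.4e-05), when its median was 13542. *Tead2* was highest at 96 h, with 16530.3 to 19372.5 (median 17557), and fell in both later steps (−0.16, SE 0.041, adjusted p = 0.00078 and −0.39, SE 0.041, adjusted p = 3.71e-12).

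*Yap1* moved within a narrower range. It rose from a median of 9806 to 12989 at 48 h (0.37, SE 0.035, adjusted p = 2.82e-14) and fell to 9471 at 72 h (−0.42, SE 0.031, adjusted p = 4.04e-18). Its paralogue *Wwtr1* had a median of 1689 in ES cells and 1866 at 48 h (0.05, SE 0.053, adjusted p = 0.427). *Wwtr1* then rose to 3129 to 3618 (median 3394) at 72 h (0.93, SE 0.047, adjusted p = 4.88e-25), above all 48 h libraries, and fell by 96 h (−0.55, SE 0.046, adjusted p = 1.37e-15). Over the step from 72 to 96 h *Yap1* rose again (0.16, SE 0.031, adjusted p = 1.3e-05), and *Wwtr1* rose from 120 to 144 h (0.37, SE 0.046, adjusted p = 1.11e-09), to 2833 to 3650.4 (median 3152). So the 2 co-activator genes moved in opposite directions between 48 and 72 h.

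The inhibitor *Amotl1* (chr9:14541966-14645056, minus strand) climbed from 1095 to 2494 (median 1891) in ES cells to 5809 to 7894 (median 6527) at 96 h and rose in each of the 3 steps between (0.54, SE 0.068, adjusted p = 3.94e-10, then 0.62 and 0.69). *Amotl2* (chr9:102716672-102733418, plus strand) fell from ES cells to 48 h (−0.32, SE 0.057, adjusted p = 1.67e-06) and rose in both steps after 96 h (0.27, SE 0.052, adjusted p = 9.33e-06 and 0.42, SE 0.051, adjusted p = 4.66e-10), from a median of 4236 to 6716. *Lats2* (chr14:57689662-57758388, minus strand) stayed low, with medians between 62.2 at 48 h and 112 at 120 h. It fell at the first step (−0.52, SE 0.14, adjusted p = 0.00116), and its rise from 72 to 96 h (0.35, SE 0.13, adjusted p = 0.0138) did not pass without replicate 1 (adjusted p = 0.201) or in the WT + WT populations alone (0.421), nor without replicate 1 did that from 96 to 120 h (0.32, adjusted p = 0.137). *Lats2* held only 45 to 228 counts a library, and 42.4% of its exon bases are shared on the same strand with *Gm49361*, listed at 0 in every library, so its counts are uncertain.

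The 3 readout genes all fell between ES cells and 48 h, a step in which aggregation and the change of medium cannot be told apart. *Ccn1* (chr3:145646976-145649981, minus strand), which encodes a secreted matricellular protein, went from 661 to 1443 (median 992) to 207 to 308 (median 241) (−1.95, SE 0.14, adjusted p = 3.18e-18). *Ccn2* (chr10:24595442-24598683, plus strand), its relative, went from 1216 to 1940.1 (median 1501) to 665 to 917 (median 783) (−0.96, SE 0.098, adjusted p = 6.01e-13). Neither range overlapped between the times. *Ankrd1* (chr19:36111961-36120099, minus strand), which encodes a nuclear ankyrin-repeat protein, held 107 counts in 6 libraries of WT ES cells and 2 counts in 9 WT libraries at 48 h, a ratio of normalized levels of 81.3 (95% interval 22.0 to 680, counting error only). In p53KO–emiRFP cells its 92 counts at 0 h compared with 0 at 48 h, at least 29.6-fold lower at a floor of 3 counts over the group, and with an exact 95% lower limit of 23.6 for the ratio.

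After 48 h the readouts parted. *Ccn1* rose to 320 to 836 (median 658) at 72 h (1.27, SE 0.13, adjusted p = 1.95e-12) and to 838 to 1772 (median 1117) at 144 h (0.78, SE 0.12, adjusted p = 2.1e-07). *Ccn2* rose to 698 to 1472 (median 1072) at 72 h (0.44, SE 0.089, adjusted p = 1.93e-05), fell to 448 to 671 (median 530.1) at 96 h (−1.01, SE 0.091, adjusted p = 1.39e-14) and rose to 989 to 2074 (median 1389.9) at 120 h (1.46, SE 0.091, adjusted p = 9.99e-21). Every *Ccn2* library at 96 h lay below every library at 72 and 120 h. It reached 1766 to 3348 (median 2265) at 144 h (0.72, SE 0.086, adjusted p = 2.95e-10). *Ankrd1* rose from 120 to 144 h (2.04, SE 0.42, adjusted p = 4.48e-05), to 58 counts in 9 libraries, a level still 3.26-fold below that of ES cells (95% interval 2.35 to 4.58, counting error only). The rise of *Ccn1* from 96 to 120 h (0.33, SE 0.12, adjusted p = 0.0188) rested on replicates 1 and 2, with an adjusted p of 0.0954 without the former and 0.807 without the latter, and of 0.0771 in the WT + WT populations alone.

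In WT cells 9 of 10 genes passed at the first step and 6 of 10 at each of the other 4. The share of all genes that passed was 70.3%, 66.9%, 58.6%, 56.8% and 55.4%, so that 6 of 10 is near the background. Some pluripotency markers rose in WT cells over the late steps. Among them were *Dppa5a* (1.24), *Klf4* (1.23) and *Nanog* (0.95) from 96 to 120 h. From 120 to 144 h *Zfp42* (0.54), *Dppa5a* (0.47) and *Nanog* (0.46) rose. *Pou5f1* went the other way in WT–mCherry beside WT, with means of 13749 at 96 h and 9535 at 120 h. The part of cell type markers in the steps between times was not tested.

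In p53KO–emiRFP cells the first step also brought falls of *Tead1* (−1.68, SE 0.13, adjusted p = 5.18e-17), *Ccn1* (−2.17, SE 0.23, adjusted p = 3.05e-12) and *Ccn2* (−0.67, SE 0.15, adjusted p = 0.000156). *Yap1* (0.48), *Tead2* (0.61) and *Amotl1* (0.33) rose over it, the last with an adjusted p of 0.00554, and 0.111 without replicate 2. *Wwtr1* (−0.01, SE 0.082, adjusted p = 0.932), *Lats2* (−0.15, SE 0.22, adjusted p = 0.583) and *Amotl2* (−0.14, SE 0.09, adjusted p = 0.185) did not pass. By 72 h *Wwtr1* (1.18, SE 0.082, adjusted p = 2.59e-18), *Tead1* (1.25, SE 0.13, adjusted p = 3.64e-12) and *Amotl1* (0.85, SE 0.10, adjusted p = 4.71e-10) rose, and *Yap1* fell (−0.29, SE 0.054, adjusted p = 1.08e-05). The rise of *Ccn1* in that step (0.60, SE 0.23, adjusted p = 0.0295) was lost without replicate 1 (adjusted p = 0.12) or 2 (0.0764). From 72 to 96 h *Ccn2* (−1.64, SE 0.16, adjusted p = 1.14e-12) and *Wwtr1* (−0.52, SE 0.08, adjusted p = 2.72e-07) fell, while *Tead2* (0.46, SE 0.071, adjusted p = 2.07e-07) and *Amotl1* (0.66, SE 0.10, adjusted p = 2.24e-07) rose.

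From 96 to 120 h *Ccn2* in p53KO–emiRFP cells rose by 0.53 (adjusted p = 0.00836, and 0.203 without replicate 3), where the WT value was 1.46. *Tead2* rose in that step (0.23, SE 0.071, adjusted p = 0.00924, and 0.0799 without replicate 2). So did *Ccn1* (0.77, SE 0.22, adjusted p = 0.00392, and 0.0958 without replicate 1) and *Yap1* (0.16, SE 0.053, adjusted p = 0.0135, and 0.106 without replicate 1, 0.0802 without replicate 2 or 0.10 without the low-count filter). The inhibitors *Amotl1* (0.46, SE 0.10, adjusted p = 0.000194) and *Amotl2* (0.39, SE 0.089, adjusted p = 0.000381) rose too. With replicates paired, *Tead1* (0.26, adjusted p = 0.0168) and *Lats2* (0.47, 0.0185) passed as well, beside 39.6% of all genes. In the last step *Lats2* rose (0.76, SE 0.20, adjusted p = 0.00249), and so did *Ccn2* (0.66, SE 0.16, adjusted p = 0.00115, and 0.0716 without replicate 3) and *Wwtr1* (0.30, SE 0.08, adjusted p = 0.00391, and 0.11 without replicate 2). Of 10 genes 7, 5, 4, 6 and 3 passed at the 5 steps, beside 59.5%, 46.4%, 44.5%, 34.9% and 22.7% of all genes.

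The p53KO–emiRFP and WT–emiRFP cells, which share the H2B–emiRFP670 transgene, were then compared at each time. The smallest adjusted p-values were those of *Ccn2* and *Tead2* at 120 and 144 h and of *Amotl1* at 144 h. *Ccn2* stood at 518, 534 and 494 normalized counts in p53KO–emiRFP at 120 h and at 1651, 2074 and 1806 in WT–emiRFP. At 144 h it stood at 642, 955 and 849.6 against 2411, 3348 and 2965. At both times the 3 p53KO libraries lay below all 9 WT libraries. The WT–emiRFP cells came from WT + WT gastruloids. WT–mCherry cells from the same gastruloids as p53KO–emiRFP stood at 1061 ± 89.8 at 120 h and 2155 ± 436 at 144 h (SD, n = 3). Against WT–emiRFP *Ccn2* was 3.58-fold lower at 120 h (log2 fold change −1.84, SE 0.13, adjusted p = 6.47e-08) and 3.57-fold lower at 144 h (−1.84, SE 0.16, adjusted p = 2.41e-07). It was also lower at 96 h, with 399.7, 384 and 285 against 591, 471 and 530.1 (−0.58, SE 0.12, adjusted p = 0.00332). Of its exon bases 23.2% overlap the antisense transcript *Gm15270*, which held 3 to 121 counts a library.

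*Ccn1* differed early instead. In ES cells it stood at 1275, 1187 and 1518 in p53KO–emiRFP against 956, 689.7 and 661 in WT–emiRFP and was higher (0.78, SE 0.16, adjusted p = 0.0119). At 72 h it was lower, with 416, 521 and 393 against 729, 836 and 554 (−0.67, SE 0.17, adjusted p = 0.00953), and so it was at 96 h, with 398, 396 and 439.8 against 619.6, 535 and 666 (−0.56, SE 0.12, adjusted p = 0.00422). The groups did not overlap at these 3 times. Nor did they at 48 h, where p53KO–emiRFP had higher values that did not pass (0.30, SE 0.13, adjusted p = 0.105). They overlapped at 120 h (0.01, SE 0.25, adjusted p = 0.977) and 144 h (−0.24, SE 0.23, adjusted p = 0.373). WT–mCherry cells of the same WT + p53KO gastruloids stood at 423 ± 100 at 72 h (SD, n = 3) and overlapped the p53KO–emiRFP libraries. The *Ccn1* calls were lost at 0 h without replicate 2 (adjusted p = 0.124) or 3 (0.192), and without replicate 1 at 72 h (0.0855) and 96 h (0.0953). The call at 96 h was also lost in one fit of all 69 libraries (0.0674).

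*Ankrd1* in ES cells stood at 22.8, 34.7 and 42.5 in p53KO–emiRFP against 15.0, 10.5 and 19.8 in WT–emiRFP, without overlap (1.12, SE 0.31, adjusted p = 0.0529, and 0.0411 with same-numbered replicates paired, beside 9.82% of all genes). It did not pass the low-count filter within the later times. Its 14 counts in 3 p53KO libraries at 144 h gave a level of 4.39 (95% interval 2.40 to 7.36, counting error only), beside 5.82 (4.42 to 7.53) in 9 WT libraries.

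*Tead2* was higher in p53KO–emiRFP cells, in the direction opposite to *Ccn2*. At 120 h it stood at 23672.5, 23118 and 23988 against 14638, 13423 and 14792 (0.72, SE 0.056, adjusted p = 1.29e-07). At 144 h it stood at 23614, 20611.5 and 21176 against 11615, 10728 and 9732, 2.04-fold higher (1.03, SE 0.093, adjusted p = 3.21e-07). The p53KO libraries lay above all 9 WT libraries at both times.

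*Tead1* was lower. At 120 h it stood at 9669.9, 8974 and 10756 in p53KO–emiRFP against 12716, 14599 and 14937 in WT–emiRFP, without overlap (−0.52, SE 0.095, adjusted p = 0.000389). The differences at 96 h (−0.30, SE 0.059, adjusted p = 0.00187) and 144 h (−0.27, SE 0.089, adjusted p = 0.0167) were smaller, and were lost at 96 h without replicate 1 (adjusted p = 0.0853), at 144 h without replicate 3 (0.0539), and in one fit of all 69 libraries (0.0905 and 0.0562).

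The co-activator genes differed little. *Yap1* was 1.13-fold higher in p53KO–emiRFP at 120 h, with 11351, 11269 and 12117 against 9974, 9696 and 11095 (0.18, SE 0.06, adjusted p = 0.0256, and 0.177 without replicate 1 or 0.0904 without replicate 2). At the other 5 times its log2 fold change lay between −0.08 and 0.09. *Wwtr1* was lower at 48 h, with 1534, 1575.5 and 1616 against 1912, 1866 and 2048 (−0.30, SE 0.077, adjusted p = 0.0111, and 0.137 without replicate 1).

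Of the inhibitors, *Amotl1* was higher in p53KO–emiRFP at 144 h, with 9973, 9203 and 10004 against 5670, 5438 and 5667 (0.80, SE 0.074, adjusted p = 4.23e-07). These 3 libraries lay above all 9 WT libraries. At 120 h it stood at 8477, 8014 and 9542 against 6564, 6025 and 7209 (0.39, SE 0.099, adjusted p = 0.004, and 0.0592 without replicate 1). *Lats2* was higher at 144 h, with 196, 188 and 199.8 against 107, 99.3 and 95.6 (0.95, SE 0.18, adjusted p = 0.000434), yet WT–mCherry cells of WT + WT gastruloids stood at 192, 131 and 213 and overlapped the p53KO libraries. *Amotl2* did not pass at any of the 6 times in this fit, with log2 fold changes between −0.19 and 0.11.

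At 0 h 1 of 10 genes passed, and of the 9 tested later 1, 1, 3, 5 and 5 passed at 48 to 144 h. Over all genes the shares were 6.13%, 22.0%, 29.1%, 23.3%, 51.0% and 65.3%, so that the count among these genes rose late as it did in the whole table. With replicates paired, 41.1% of all genes passed at 48 h, and among the 9 genes *Tead2* (adjusted p = 0.00115), *Ccn1* (0.00765), *Ccn2* (0.00369), *Amotl1* (0.000829) and *Amotl2* (0.00679) passed as well. At 72 h pairing added *Amotl2* (0.00524), beside 39.0% of all genes. At 96 h it added *Yap1* (0.0435), *Wwtr1* (0.0208), *Tead2* (0.00244) and *Amotl1* (0.00398), beside 38.6%. The difference between the clones itself varied over the 6 times for 8 of 10 genes by an F test in one fit of all libraries, beside 62.5% of all genes, with the smallest adjusted p for *Ccn2* (1.4e-14) and *Tead2* (9.6e-14). *Ankrd1* (0.28) and *Amotl2* (0.14) did not pass.

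**Figure D2:**
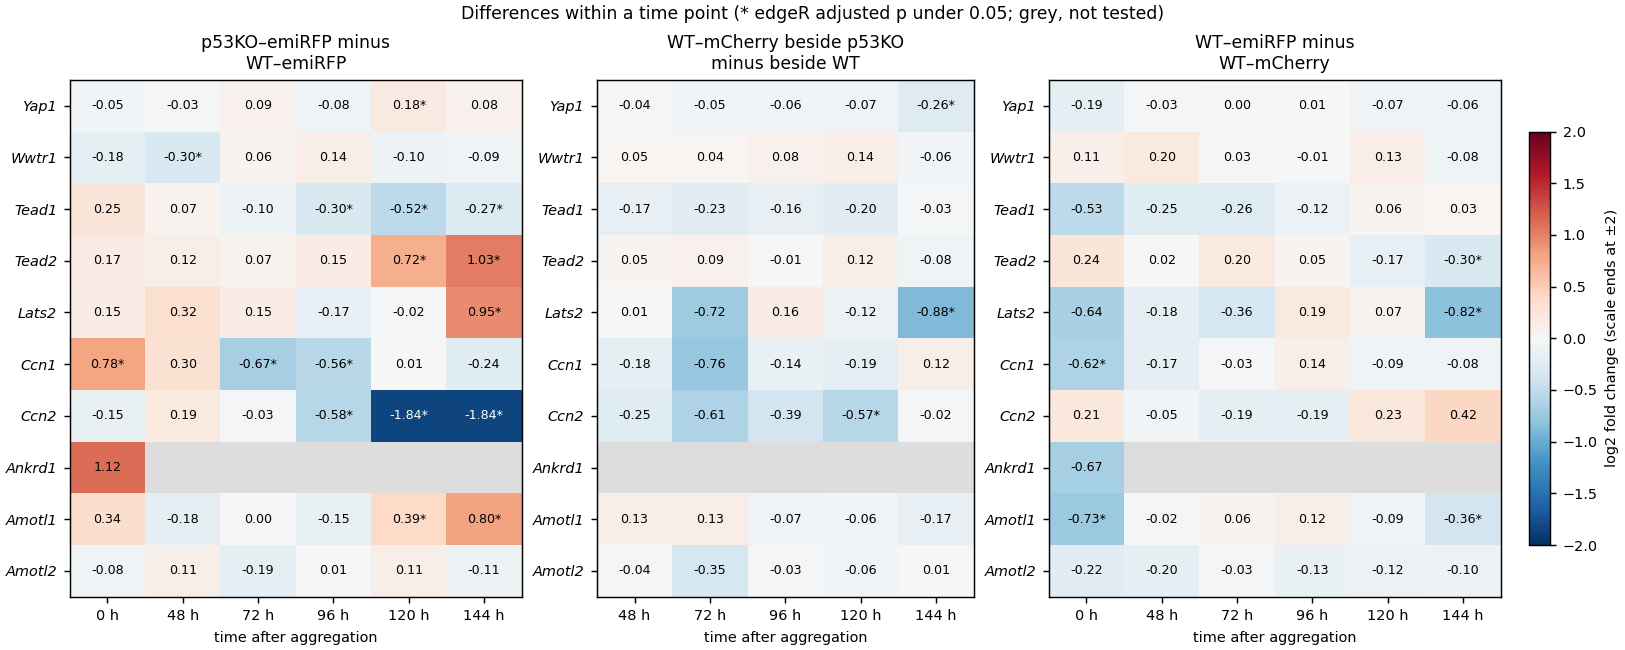
Log2 fold changes of the 10 genes (rows) by time after aggregation (columns) for p53KO–emiRFP against WT–emiRFP, WT–mCherry beside p53KO against beside WT, and WT–emiRFP against WT–mCherry; an asterisk marks an edgeR adjusted p under 0.05, and grey cells were not tested. The largest values are those of *Ccn2* (−1.84 at 120 h and −1.84 at 144 h) in the first panel.

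The emiRFP populations also differed in cell type markers, and in bulk RNA fewer cells of a type and less RNA per cell cannot be told apart. At 144 h all 7 pluripotency markers were lower in p53KO–emiRFP (summed level 33811 to 44850.4 against 183289 to 200072) and all 7 paraxial mesoderm markers higher (19229.8 to 25804 against 3189 to 4319). At 120 h these lists gave 0 higher and 7 lower (25714 to 28751.5 against 133908 to 147313) and 4 higher and 0 lower (23217 to 30268 against 10937 to 14901). Of 7 haematoendothelial markers 5 were lower at 120 h (835 to 1174 against 5566 to 5739) and 4 at 144 h (1756 to 2235 against 7549 to 7596), and of 7 endoderm markers 4 were lower at both times. *Pecam1*, which the study also read as a pluripotency surface marker, held most of the WT–emiRFP sums of the haematoendothelial list. It stood at 590 ± 72.6 in p53KO–emiRFP against 3659 ± 280 in WT–emiRFP at 120 h and 1032 ± 195 against 6126 ± 114 at 144 h. Of the other lists, 3 of 8 cardiac, 1 of 7 neural, 3 of 6 mesenchyme and 1 of 7 surface ectoderm markers were higher, and 2 of 8 cardiac, 1 of 7 neural, 2 of 6 mesenchyme and 3 of 7 surface ectoderm markers were lower at 120 h. Of the same lists at 144 h, 1 of 8 cardiac, 3 of 7 neural, 4 of 7 mesenchyme and 1 of 7 surface ectoderm markers tested were higher, and 4 of 8 cardiac, 1 of 7 neural, 1 of 7 mesenchyme and 4 of 7 surface ectoderm markers were lower.

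In ES cells, where *Ccn1* differed, 1 of 7 endoderm, 4 of 6 mesenchyme and 3 of 6 surface ectoderm markers tested were higher, and 2 of 7 pluripotency, 1 of 7 haematoendothelial, 1 of 4 neural, 3 of 7 endoderm, 1 of 6 mesenchyme and 1 of 6 surface ectoderm markers were lower. No paraxial mesoderm or cardiac marker passed by edgeR (1 and 2 at an unadjusted p under 0.05). At 48 h, with the call of *Wwtr1*, 1 of 7 pluripotency, 1 of 5 paraxial mesoderm, 2 of 7 haematoendothelial, 2 of 4 neural, 1 of 7 endoderm, 1 of 5 mesenchyme and 1 of 6 surface ectoderm markers tested were higher, and 1 of 7 pluripotency, 2 of 5 paraxial mesoderm, 1 of 7 haematoendothelial and 1 of 7 endoderm markers were lower. No cardiac marker passed by edgeR (0 at an unadjusted p under 0.05). When *Ccn1* differed again, at 72 h, 1 of 5 cardiac, 1 of 7 haematoendothelial, 1 of 5 neural, 2 of 7 endoderm and 1 of 7 surface ectoderm markers tested were higher, and 2 of 7 pluripotency, 2 of 5 cardiac, 2 of 7 haematoendothelial, 1 of 5 mesenchyme and 2 of 7 surface ectoderm markers were lower. No paraxial mesoderm marker passed by edgeR (0 at an unadjusted p under 0.05). At 96 h, with calls of *Ccn1*, *Ccn2* and *Tead1*, 2 of 6 haematoendothelial, 1 of 6 neural, 4 of 7 endoderm, 1 of 6 mesenchyme and 2 of 6 surface ectoderm markers tested were higher, and 5 of 7 pluripotency, 3 of 6 paraxial mesoderm, 1 of 7 cardiac, 2 of 6 haematoendothelial, 1 of 7 endoderm, 4 of 6 mesenchyme and 2 of 6 surface ectoderm markers were lower. The shares of all genes at an unadjusted p under 0.05 were 18.1% in ES cells, 33.9% at 48 h and 39.5% at 72 h. Apart from 1 mesenchyme marker at 0 in WT–emiRFP at 72 h no marker of these lists was at 0 in these groups, and their part in the differences of the YAP/TEAD genes was not tested.

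**Figure D3:**
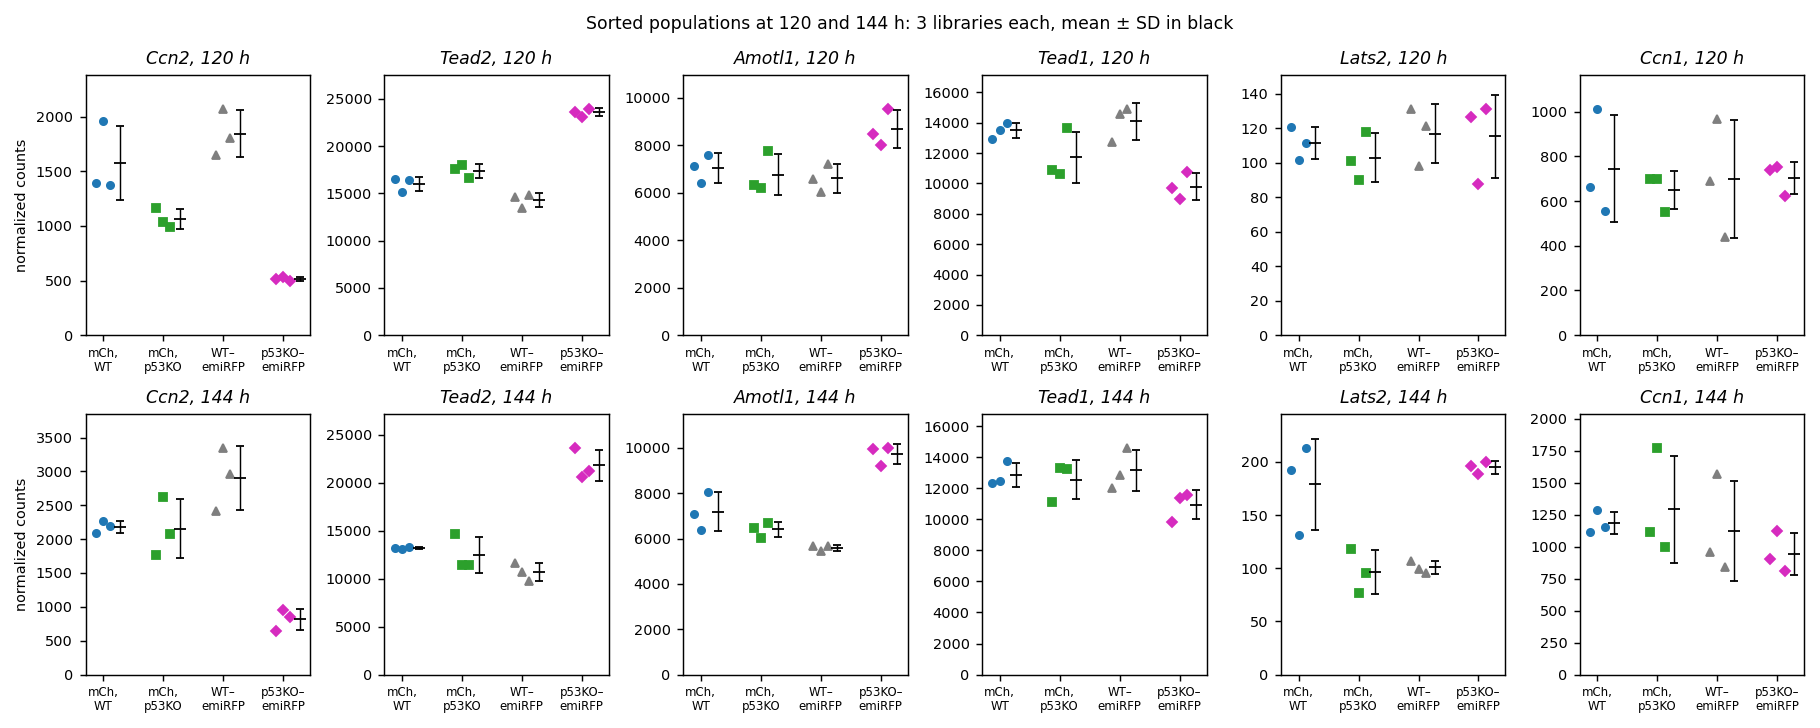
Normalized counts (vertical axes from 0) of 6 genes in the sorted populations at 120 h (top) and 144 h (bottom); coloured points are the 3 libraries, black marks the mean ± SD, and mCh stands for WT–mCherry, followed by the genotype of its neighbours. *Ccn2* is lowest and *Tead2* highest in p53KO–emiRFP at both times without overlap with a WT library, whereas *Lats2* in p53KO–emiRFP at 144 h overlaps WT–mCherry of WT + WT gastruloids.

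WT–mCherry cells from WT + p53KO gastruloids were compared with WT–mCherry cells from WT + WT gastruloids, which holds the clone fixed and varies the neighbours. At 72 h the target genes *Ccn1*, *Ccn2*, *Amotl2* and *Lats2* had lower values beside p53KO. *Ccn1* stood at 320, 520.3 and 428 beside p53KO against 693, 814 and 658 beside WT (−0.76, SE 0.17, adjusted p = 0.0665), *Ccn2* at 698, 981 and 840.4 against 1151, 1472 and 1247 (−0.61, SE 0.16, adjusted p = 0.132), and *Amotl2* at 3127, 4011 and 3706 against 4177, 4841 and 4838 (−0.35, SE 0.089, adjusted p = 0.111). The groups of these 3 genes did not overlap and 3 of 3 same-numbered pairs were lower, but none of them passed. With replicates paired they passed (adjusted p = 0.00213, 0.000684 and 0.00178), beside 2.27% of all genes, and so they did by DESeq2 (0.00143, 0.011 and 0.0178), beside 1.83%. *Lats2* stood at 49.7, 41.2 and 71.8 against 99.1, 79.1 and 87.7, also without overlap (−0.72, SE 0.20, adjusted p = 0.165). At 72 h 4 of 7 pluripotency markers were lower beside p53KO (72088 to 76811 against 79617 to 86252), as were 1 of 5 cardiac and 1 of 7 haematoendothelial markers tested. Their part in these differences was not tested.

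At 120 h *Ccn2* was lower beside p53KO, with 1162, 1033 and 989 against 1389.9, 1964 and 1373 (−0.57, SE 0.13, adjusted p = 0.0173). The call was lost without replicate 1 (adjusted p = 0.102), 2 (0.0545) or 3 (0.0943), in a fit of the 2 groups alone (0.0595), and after emiRFP RNA was subtracted by *H2bc21* (−0.43, adjusted p = 0.0716). At 144 h *Ccn2* overlapped, with 1766, 2626 and 2072 against 2084, 2265 and 2190.5 (−0.02, SE 0.15, adjusted p = 0.949). There *Yap1* was lower, with 9398, 9109 and 9708 against 10819.8, 10841 and 12049 (−0.26, SE 0.057, adjusted p = 0.00566, and 0.0687 without replicate 2). *Lats2* was lower as well, with 118, 76.5 and 95.1 against 192, 131 and 213 (−0.88, SE 0.19, adjusted p = 0.0041, and 0.0682 without replicate 3).

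Of the 9 genes tested, 0, 0, 0, 1 and 2 passed at 48 to 144 h, beside 0.0735%, 0.559%, 3.93%, 5.95% and 25.5% of all genes by edgeR. At an unadjusted p under 0.05 there were 1, 5 and 2 at 48, 72 and 96 h, beside 6.04%, 9.85% and 19.8% of all genes. DESeq2 called 0, 3 and 1, beside 0.386%, 1.83% and 7.81%. With replicates paired, *Tead1* (0.00588), *Ccn2* (0.00645) and *Amotl1* (0.0446) passed at 48 h, beside 4.91% of all genes. *Tead1* (0.00271) and *Ccn2* (0.00422) passed at 96 h, beside 20.9%, and *Amotl1* (0.0163) was added at 144 h, beside 37.2%. *Wwtr1*, with log2 fold changes between −0.06 and 0.14, and *Tead2*, between −0.08 and 0.12, passed at none of the 5 times by edgeR, paired or not. *Ankrd1* did not pass the low-count filter in this comparison. At 120 h, where *Ccn2* was lower, it stood at 0.789, 0.788 and 0 beside p53KO against 3.74, 4.94 and 0.815 normalized counts beside WT. These are 1, 1 and 0 against 4, 5 and 1 counts, so that the nearest libraries of the groups differ by library size alone. The log2 fold change of *Ccn2* was −0.25, −0.61, −0.39, −0.57 and −0.02 from 48 to 144 h, and whether it varied over time was not called (adjusted p = 0.19). In that test *Lats2* passed (0.024), beside 11.6% of all genes, but not without any 1 of the replicates.

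RNA of emiRFP cells in the WT–mCherry libraries, read from *H2bc14*, came to 0.401% to 1.99% beside p53KO at 72 h and 0.436% to 1.03% beside WT. At 120 h it was 2.91% to 7.35% against 1.06% to 1.99%, and at 144 h 2.26% to 16.8% against 0.0919% to 2.01%. Read from *H2bc21* it was 2.24% to 5.93% against 1.94% to 3.73% at 72 h, 8.25% to 25.0% against 2.90% to 5.41% at 120 h, and 2.73% to 19.6% against 1.42% to 6.82% at 144 h. The 2 readings differed within a library. Replicate 3 beside p53KO at 120 h came to 6.55% by *H2bc14* and 25.0% by *H2bc21*. At 48 h the libraries beside p53KO came to 0.208% to 0.278% by *H2bc14* and to 0% by *H2bc21*. Which reading is nearer was not tested. Beside p53KO, at 48 h, 2 of 7 pluripotency markers tested were lower. No paraxial mesoderm, cardiac, haematoendothelial, neural, endoderm, mesenchyme or surface ectoderm marker passed by edgeR (0, 1, 1, 1, 1, 0 and 0 at an unadjusted p under 0.05). At 96 h 2 of 7 pluripotency markers tested were lower. No paraxial mesoderm, cardiac, haematoendothelial, neural, endoderm, mesenchyme or surface ectoderm marker passed by edgeR (1, 1, 0, 1, 2, 1 and 4 at an unadjusted p under 0.05). At 120 h 4 of 7 paraxial mesoderm, 1 of 6 mesenchyme and 1 of 7 surface ectoderm markers tested were higher, and 2 of 7 pluripotency, 3 of 7 haematoendothelial, 1 of 7 neural and 2 of 6 mesenchyme markers were lower. No cardiac or endoderm marker passed by edgeR (1 and 4 at an unadjusted p under 0.05). By 144 h 4 of 7 paraxial mesoderm, 2 of 8 cardiac, 2 of 7 endoderm, 1 of 7 mesenchyme and 1 of 7 surface ectoderm markers tested were higher, and 3 of 7 haematoendothelial, 6 of 7 neural, 4 of 7 mesenchyme and 1 of 7 surface ectoderm markers were lower. No pluripotency marker passed by edgeR (2 at an unadjusted p under 0.05). Summed levels of the paraxial markers were 17966 to 22437 against 12566 to 16839 at 120 h, and those of the haematoendothelial markers 2783 to 3163 against 3883 to 4619 at 120 h and 5749 to 6127 against 5578 to 6032 at 144 h. The shares of all genes at an unadjusted p under 0.05 were 20.4% and 37.9% at these times. Summed levels of the neural and mesenchyme markers at 144 h were 3775 to 5402 against 6012 to 6652 and 3682 to 4435 against 5353 to 7773. The part of these markers in the differences at these times was not tested.

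The 2 WT clones were compared to show how far clones of one *Trp53* genotype differ. This comparison shares its WT–emiRFP libraries with the p53KO comparison and its WT–mCherry libraries with that of the neighbours. In ES cells *Ccn1* was lower in WT–emiRFP, with 956, 689.7 and 661 against 1443, 1028 and 1082 (−0.62, SE 0.16, adjusted p = 0.029, and 0.199 without replicate 2, 0.111 without replicate 3 or 0.059 in a fit of the 2 groups). The p53KO–emiRFP values given above for ES cells overlap those of WT–mCherry. *Amotl1* was lower too, with 1095, 1540.4 and 1558 against 2494, 2224 and 2252 (−0.73, SE 0.14, adjusted p = 0.00552, and 0.0741 without replicate 2). *Tead1* stood at 5975, 10017 and 11419 against 13328, 13256 and 12894 (−0.53, SE 0.17, adjusted p = 0.0645), with replicate 1 of WT–emiRFP far below the other two. *Ankrd1* stood at 15.0, 10.5 and 19.8 against 26.1, 24.6 and 20.7, without overlap (−0.67, SE 0.33, adjusted p = 0.22). *Yap1* passed at none of the 6 times by edgeR, with log2 fold changes between −0.19 and 0.01.

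At 144 h *Tead2* was lower in WT–emiRFP than in WT–mCherry, with 11615, 10728 and 9732 against 13160.2, 13053 and 13305 (−0.30, SE 0.092, adjusted p = 0.0298, and 0.119 without replicate 2 or 0.21 without replicate 3). *Lats2* (−0.82, SE 0.19, adjusted p = 0.006, and 0.0641 without replicate 1 or 0.12 without replicate 3) and *Amotl1* (−0.36, SE 0.074, adjusted p = 0.00331, and 0.0558 without replicate 1) were lower as well. *Ccn2* stood at 2411, 3348 and 2965 against 2084, 2265 and 2190.5, without overlap (0.42, SE 0.15, adjusted p = 0.0659, and 0.000608 with replicates paired). In WT–emiRFP ES cells 1 of 7 haematoendothelial and 1 of 4 neural markers tested were higher, and 3 of 7 haematoendothelial, 2 of 6 mesenchyme and 2 of 6 surface ectoderm markers were lower. No pluripotency, paraxial mesoderm, cardiac or endoderm marker passed by edgeR (0, 0, 3 and 2 at an unadjusted p under 0.05). In WT–emiRFP at 144 h 5 of 7 pluripotency, 2 of 8 cardiac, 1 of 7 haematoendothelial, 1 of 7 neural, 2 of 7 endoderm and 1 of 7 surface ectoderm markers tested were higher, and 3 of 7 paraxial mesoderm, 1 of 8 cardiac, 1 of 7 haematoendothelial, 3 of 7 neural and 5 of 7 mesenchyme markers were lower. Over all genes 27.1% had an unadjusted p under 0.05 in ES cells. The part of these markers was not tested.

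Between the WT clones 2 of 10 genes passed at 0 h, none at 48, 72, 96 and 120 h and 3 of 9 at 144 h by edgeR, beside 11.1%, 8.89%, 7.64%, 2.15%, 1.24% and 23.8% of all genes. At the 4 times without a call 3, 2, 0 and 1 genes had an unadjusted p under 0.05, beside 23.2%, 22.3%, 16.2% and 14.1% of all genes. DESeq2 called 1, 1, 0 and 0, beside 11.5%, 10.5%, 5.10% and 3.88%. With replicates paired, *Wwtr1* (0.20, adjusted p = 0.000555), *Tead1* (−0.25, 3.87e-06) and *Amotl2* (−0.20, 2.67e-05) passed at 48 h, beside 28.8% of all genes. *Tead1* (0.0296), *Amotl1* (0.0359) and *Amotl2* (0.0125) passed at 96 h, beside 16.0%, and *Tead2* (0.0246) at 120 h, beside 10.8%.

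Other genes of the pathway were read as lists. Among 16 further YAP target genes the calls in ES cells were 3 higher and 1 lower in p53KO–emiRFP, while 48 h gave 2 higher and 3 lower, 72 h gave 0 higher and 5 lower and 96 h gave 1 higher and 6 lower. The list gave 5 higher and 5 lower at 120 h, and 144 h gave 11 higher and 4 lower. The shares of all genes higher and lower, the background for each list of this comparison, were 1.98% and 4.15% in ES cells. From 48 h to 144 h, in order, they were 10.3% and 11.7%, 13.4% and 15.7%, 9.45% and 13.8%, 27.3% and 23.7%, and 33.1% and 32.1%. The median log2 fold change of the list at 144 h was 0.73, beside 0.01 over all genes. *Myof*, which encodes a membrane protein of the ferlin family, stood at 259 ± 23.4 against 1609 ± 152 normalized counts at 120 h (SD, n = 3) and was lower (−2.63, SE 0.10, adjusted p = 1.56e-10), as it was at 144 h (−2.82), 96 h (−1.06), 72 h (−1.49) and 0 h (−0.99). *F3*, the gene of coagulation tissue factor (−1.68), and *Gadd45a*, a known p53 target (−1.52), were lower at 120 h. The receptor kinase gene *Axl* was higher at 0 h (0.95) and lower at 72 h (−1.23) and 96 h (−0.77). *Tgfb2* was higher at 0 h (1.91), and *Ccdc80* was lower at 96 h (−1.10). *Ccdc80* (2.74) and *Rbms3* (2.12) were higher at 144 h, so the targets did not move one way.

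Of 10 Hippo kinase core genes none was called at 0 h by edgeR (1 at an unadjusted p under 0.05), while 48 h gave 0 higher and 3 lower, 72 h gave 2 higher and 2 lower, 96 h gave 0 higher and 1 lower, 120 h gave 3 higher and 0 lower and 144 h gave 3 higher and 1 lower. *Map4k4*, a kinase gene upstream of LATS, was lower at 48 h (−0.57, SE 0.059, adjusted p = 3.7e-06), 72 h (−0.62) and 96 h (−0.23). *Sav1*, the gene of the scaffold of the upstream kinases, was lower at 48 h (−0.29) and higher at 120 h (0.41) and 144 h, with 1993 ± 38.5 against 1045 ± 9.02 (0.93, SE 0.061, adjusted p = 1.4e-08). *Lats1* was higher at 120 h (0.48) and 144 h (0.48).

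The 14 upstream regulators gave 1 higher and 1 lower in ES cells, and in gastruloids 48 h gave 2 higher and 1 lower, 72 h gave 4 higher and 2 lower, 96 h gave 3 higher and 3 lower, 120 h gave 6 higher and 5 lower and 144 h gave 8 higher and 5 lower. *Ptpn14*, a known p53-induced gene whose product restrains YAP, was lower in p53KO–emiRFP at 0 h (−0.83), at 48 h, with 2463 ± 77.8 against 6286 ± 618 (−1.35, SE 0.091, adjusted p = 1.94e-08), at 72 h (−1.21) and at 96 h (−0.50). *Amot*, the third angiomotin gene, was higher at 120 h (1.18, SE 0.082, adjusted p = 4.91e-08), and the protocadherin genes *Dchs1* (1.78) and *Fat4* (1.42) at 144 h.

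Of 6 other *Tead* and *Vgll* genes none was called at 0 and 48 h by edgeR (2 and 1 at an unadjusted p under 0.05), while 72 h gave 0 higher and 1 lower, 96 h gave 0 higher and 2 lower, 120 h gave 2 higher and 3 lower and 144 h gave 2 higher and 4 lower. *Vgll4*, whose product competes with YAP for TEAD, was higher at 120 h (0.75) and at 144 h, with 1672 ± 96.9 against 727 ± 75.9 (1.20, SE 0.11, adjusted p = 3.17e-07). *Vgll1* (−1.88 and −1.85) and *Vgll3* (−1.86 and −1.20) were lower at both times.

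In WT–mCherry cells beside p53KO no gene of these 4 lists was called at 48 or 72 h by edgeR. At an unadjusted p under 0.05 the further targets had 2 and 3, the kinase core 1 and 1, the upstream regulators 0 and 3 and the *Tead* and *Vgll* genes 1 and 0. The further targets had 2 genes higher at 96 h (*Igfbp3* 0.64 and *Axl* 0.46), beside 2.87% and 1.05% of all genes higher and lower. The counts for 120 h were 2 higher and 4 lower, beside 3.43% and 2.53% of all genes, and those for 144 h were 1 higher and 5 lower, beside 10.1% and 15.4% (*Tgfb2* −1.23 and *Igfbp3* −1.03). In the kinase core, which had no call at 96 h by edgeR (2 at an unadjusted p under 0.05), *Stk4* was lower at 120 h (−0.25). The core gave 0 higher and 2 lower at 144 h (*Mob1a* −0.26 and *Stk4* −0.26). The *Tead* and *Vgll* genes had no call at 96 h by edgeR (1 at an unadjusted p under 0.05). *Vgll1* was lower at 120 h (−1.04), and 144 h gave 1 higher and 4 lower of 6 (*Vgll2* −2.37, *Vgll3* −0.75 and *Vgll4* −0.39). The upstream regulators had no call at 96 h (5 at an unadjusted p under 0.05), *Ptpn14* higher at 120 h (0.28) and 2 higher and 5 lower at 144 h (*Fat4* −1.17, *Amot* −1.05 and *Dchs1* −1.02). Between the WT clones at 144 h, which share the WT–mCherry libraries, beside 10.8% and 13.0% of all genes higher and lower, the same list had 2 higher and 5 lower (*Fat4* −1.24, *Dchs1* −1.14 and *Amot* −0.86), and the further targets 2 higher and 7 lower. The kinase core had 1 higher and 1 lower there and the *Tead* and *Vgll* genes 1 higher and 2 lower.

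**Figure D4:**
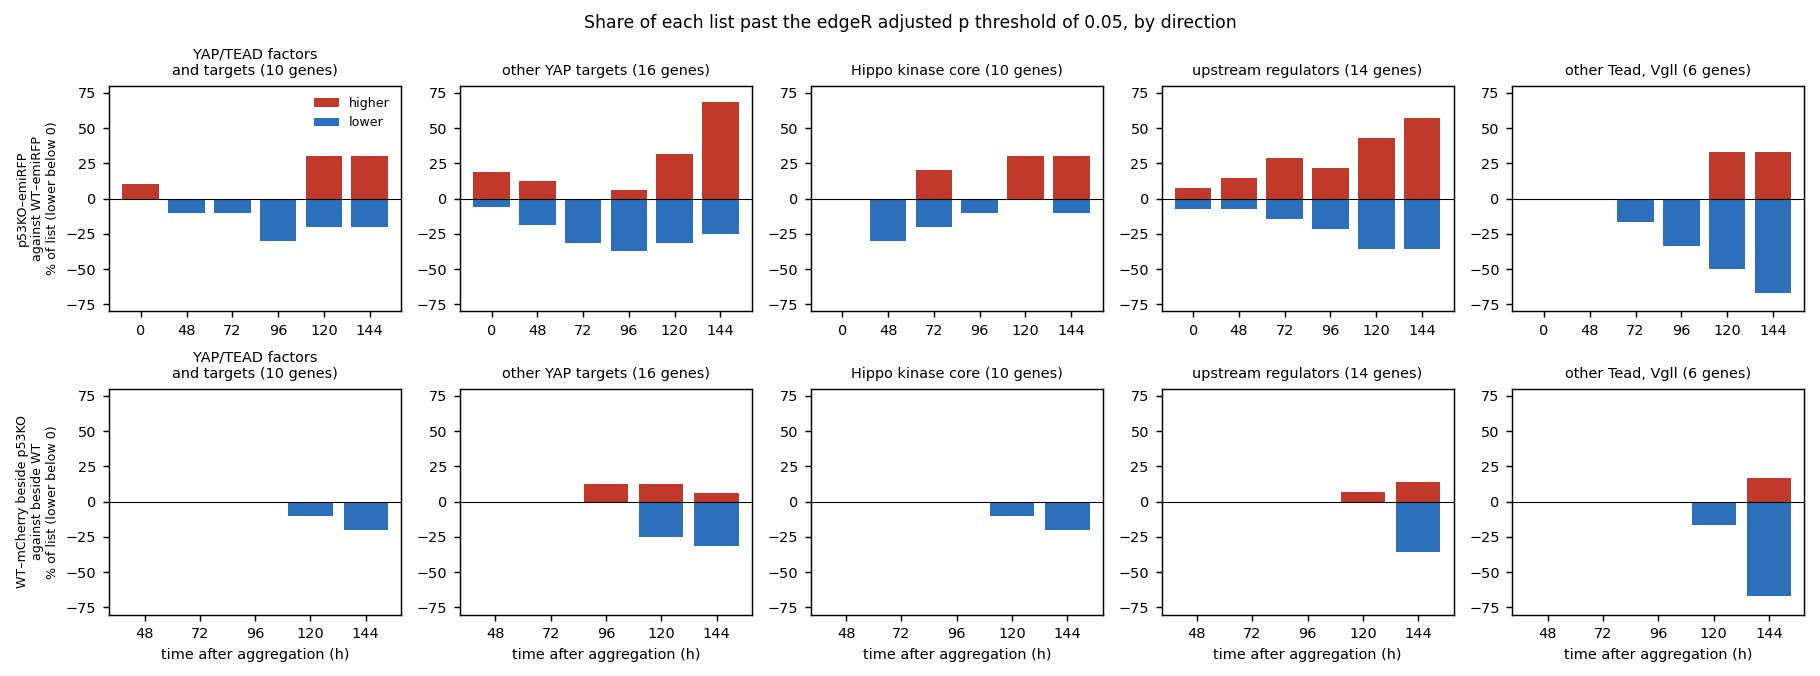
Percent of each gene list past an edgeR adjusted p of 0.05 (vertical axis, higher above 0 and lower below 0) by time after aggregation, for p53KO–emiRFP against WT–emiRFP (top) and WT–mCherry beside p53KO against beside WT (bottom). The bars of the other YAP targets in the top row stand for 4 genes at 0 h and 15 at 144 h, and the bottom row is empty at 48 and 72 h.

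Over the means of the 23 groups, which share clones and developmental time, the genes most like each of the 10 in log2 level were found by Pearson correlation among 12141 genes and are given as a description. They were *Gm10503* (r = 0.93) and *Rad54l2* (r = 0.90) for *Yap1*, *Celf2* (r = 0.95) and *Cntfr* (r = 0.92) for *Wwtr1*, *Porcn* (r = 0.97) and *Adck1* (r = 0.96) for *Tead1* and *Csnk1d* (r = 0.97) and *Zc3h7b* (r = 0.97) for *Tead2*. For *Lats2* they were *Gm37494* (r = 0.89) and *Plce1* (r = 0.88), for *Amotl1* *Zfp618* (r = 0.99) and *Lpin2* (r = 0.98) and for *Amotl2* *Secisbp2l* (r = 0.91) and *Sox21* (r = 0.89). For the readouts they were *Eea1* (r = 0.93) and *Ttll3* (r = 0.93) for *Ccn1*, *Dlgap3* (r = 0.94) and *Dhx32* (r = 0.92) for *Ccn2* and *Nid1* (r = 0.94) and *Klf3* (r = 0.93) for *Ankrd1*. Among the 10 genes *Ccn1* was most like *Tead1* (r = 0.87), and *Tead2* most like *Amotl1* (0.73). *Tead2* ran against *Ccn2* (−0.66) and *Yap1* against *Tead1* (−0.68).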

How the data were processed

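The deposited table holds raw whole-number counts per gene, which the authors made from poly(A)-selected, stranded libraries with Trim Galore 0.6.7 and STAR 2.7.11b on GRCm38.p6 with a Gencode annotation. The strand column that was taken is not given in the sources used here. For the present text, counts were divided by median-of-ratios size factors over 69 libraries, the scaling named in the study's methods, and tested with edgeR 4.0.16 (quasi-likelihood, R 4.3.3, filterByExpr, Benjamini-Hochberg adjustment over all genes tested, threshold 0.05). Each time point was fitted with its 12 libraries (9 at 0 h), and steps and tests over time in one fit of all 69.

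Same-numbered libraries were checked for pairing by the correlation of their deviations from the group means over genes. Every correlation was over 0.1 in 6 of 6 times for p53KO–emiRFP against WT–emiRFP, in 4 of 5 for the neighbours (not at 120 h), in 4 of 6 for the WT clones (not at 0 and 72 h) and in 3 of 5 p53KO steps (not the first and last). The paired fit adds the replicate number as a block. DESeq2 1.42.0, TMM scaling, no filter, other sets of libraries, subtraction of emiRFP RNA and leaving out each replicate were tried as well. The share of emiRFP RNA is the excess of *H2bc14* or *H2bc21* over WT–mCherry ES cells, divided by that in the same-numbered emiRFP library. The unpaired edgeR test, at 120 h and over all 69 libraries, and DESeq2 at 120 h were run on simulated data. The paired fit, the subtraction and the F tests over time were not.

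All 10 genes are named in each comparison, other pathway genes as counts with up to 3 largest changes a list, and the 2 most similar genes of each. The genes and lists were chosen with earlier results of these data known. Levels per kb use the merged exon length, and *Tead1* and *Ccn2* have no promoter sequence here. *Ankrd1*, which did not pass the low-count filter within a time after 0 h, is given by counts pooled over the libraries of a group with exact intervals, which cover counting error only.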

Additional observations from a re-analysis of the deposited data

Results flagged for a closer look

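The difference between p53KO–emiRFP and WT–emiRFP cells varied over the 6 times, by an F test of the difference itself in one edgeR fit of 69 libraries, for 8 genes. Most genes of the whole table passed this test too, at the share given above. The adjusted p was 1.4e-14 for *Ccn2*, 9.6e-14 for *Tead2*, 3.5e-08 for *Amotl1*, 0.00026 for *Ccn1*, 0.002 for *Tead1*, 0.0089 for *Wwtr1*, 0.01 for *Lats2* and 0.017 for *Yap1*. With 1 replicate left out, between 5 and 8 of these tests passed. The difference in WT–mCherry cells by neighbour varied over time for *Lats2* (adjusted p = 0.024), and no gene passed that test when any 1 replicate was left out.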

How the results depend on the processing

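Of 2327 values of single genes under an alternative, 2122 kept their direction and their side of the threshold, 46 no longer passed and 101 passed newly. A further 58 changed sign, all with log2 fold changes of at most 0.19 in size as reported and called neither way. No called value changed sign. The counts of the 10 genes called that moved by over 1.5 times are these. For p53KO–emiRFP against WT–emiRFP, the count at 0 h (1) was 2 without the low-count filter, 2 with the replicate block and 3 in one fit of all 69 libraries. At 48 h (1) it was 6 with the block and 2 by DESeq2, at 72 h (1) 2 without the filter and 2 with the block, and at 96 h (3) 7 with the block and 1 in one fit of all libraries. For the neighbours, the count at 48 h (0) was 3 with the block, at 72 h (0) 5 without the filter, 3 with the block and 3 by DESeq2, and at 96 h (0) 1 without the filter, 2 with the block and 1 by DESeq2. At 120 h (1) it was 2 without the filter, 2 with the block, 0 with the 2 groups alone and 0 after subtraction by *H2bc21*, and at 144 h (2) it was 4 after that subtraction. For the WT clones, the count at 0 h (2) was 4 with the block, 1 with the 2 groups alone and 6 in one fit of all libraries. At 48 h (0) it was 2 without the filter, 3 with the block, 1 with the 2 groups alone and 1 by DESeq2, at 72 h (0) 2 without the filter, 2 with the block and 1 by DESeq2, at 96 h (0) 3 with the block and at 120 h (0) 1 with the block. The test of the neighbour difference over time (1) called 4 genes without the filter and 3 with the block. The cause of these changes was not tested. The share of all genes called stands above for part of the block and DESeq2 counts and for none of the other alternatives. Counts without that share cannot be set beside the whole table.

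With 1 replicate left out, p53KO–emiRFP against WT–emiRFP gave 0 to 3 genes at 0 h, 0 to 3 at 48 h, 0 to 1 at 72 h, 1 to 4 at 96 h, 3 to 5 at 120 h and 5 to 5 at 144 h. The neighbours gave 0 to 0 from 48 to 120 h and 1 to 2 at 144 h, and the WT clones 0 to 3 at 0 h, 0 to 2 at 48 h and 72 h, 0 to 0 at 96 and 120 h and 1 to 2 at 144 h. The WT steps gave 9 to 9, 6 to 6, 6 to 7, 4 to 6 and 6 to 6 genes and the p53KO steps 6 to 7, 4 to 5, 4 to 4, 4 to 5 and 2 to 3. The test over time gave 5 to 8 genes for p53KO and 0 to 0 for the neighbours. With pairing at 120 h for the neighbours, where the check of pairing failed, *Tead1* was added. In the WT steps, whose pairing was not checked, the block added *Tead1* from 72 to 96 h (log2 fold change 0.16, adjusted p = 0.007) and *Amotl1* from 120 to 144 h (−0.09, 0.0307). *Ankrd1* did not pass the low-count filter within a time after 0 h and was tested after 0 h in the fit of all 69 libraries.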
